A study of Mus musculus with 28 samples.

Results

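The Lgr receptors and a set of crypt stem cell genes were followed through *Apc* loss in mouse colon organoids, with and without oncogenic BRAF. The set was a fixed list of 10 genes, looked up by Ensembl identifier in the count table. Of the 10, 9 were among the 13519 genes counted: *Lgr5*, *Lgr4*, *Ascl2*, *Smoc2*, *Sox4*, *Sox9*, *Prom1*, *Lrig1* and *Cd44*. *Msi1*, which encodes an RNA-binding protein of crypt progenitors, was not analysed here. All 9 were well covered, with at least 163 counts per sample.

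In the colon, stem cells sit at the crypt base and depend on Wnt signaling. LGR4 and LGR5 bind R-spondins and thereby keep the ubiquitin ligases RNF43 and ZNRF3 from removing Frizzled receptors, which raises the response to Wnt ligands. APC is part of the complex that destroys β-catenin, so its loss switches on β-catenin target genes without ligand, among them *Lgr5*, *Ascl2*, *Sox9* and *Cd44*.

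Bulk RNA-seq was done on colon organoids from C57BL/6N mice that carried *Villin::CreERT2*, in which the Villin promoter drives an inducible Cre in intestinal epithelium, and floxed *Apc*. AC organoids carried these 2 alleles, PAC organoids in addition *Trp53* LSL-R172H, BAC organoids *Braf* floxV600E, and BPAC organoids both. Cultures received 4-hydroxytamoxifen (4-HT, 3.5 µM for 24 hours), which activates Cre, or ethanol (EtOH) as vehicle, and RNA was taken 3 days later. There were 7 donor mice, 1 for AC and 2 for each other genotype, and 2 cultures per donor (duplicates 1 and 2), which gave 14 cultures and 28 samples. EtOH-treated organoids carried the same alleles before recombination. Every genotype carried floxed *Apc*, so *Apc* loss cannot be told apart from an effect of 4-HT or of Cre activity, and the culture medium contained R-spondin, Wnt3a and a GSK3 inhibitor in all samples. The study took each donor's organoids at 2 different passages, and the labels do not say that the duplicate numbers mark them. Cultures of one donor are not separate animals, and p-values measure the spread between these cultures.

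Totals were 20.6 to 40.1 M counts per sample, and levels are given as CPM (counts of a gene relative to the TMM-scaled total of its sample). The scaling factors were 0.885 to 0.970 with EtOH and 1.04 to 1.10 with 4-HT. The 4-HT-treated duplicate 1 samples of both PAC donors held *Xist* counts (834 and 636) together with counts of the Y-linked *Ddx3y* (456 and 374). In their other samples, donor Col290 had up to 7 *Xist* counts and donor Col313 had 0 *Ddx3y* counts. This pair was also the closest of all pairs within a group. Whether each of the pair holds RNA of 1 donor alone was not tested, and PAC may therefore have fewer than 4 separate samples with 4-HT, so the PAC changes of the 9 genes are given with and without both duplicate 1 cultures. Organoids expressed 10 of 10 epithelial and colon markers, with a summed level from 14685 to 25673 CPM, while only *Pecam1* and *Cd68* of 10 stromal and immune markers were among the genes counted, at a sum of 1.73 to 5.20 CPM. Of the targeted genes, *Apc* counts rose with 4-HT in AC by 0.92 ± 0.24 (log2 fold change ± SE, edgeR adjusted p = 0.00979), which gene counts that include the undeleted exons cannot read as presence or loss of the protein. *Trp53* rose by 0.74 (AC), 0.97 (BAC), 1.51 (PAC) and 1.84 (BPAC), with a difference of 0.82 ± 0.12 between genotypes with and without the *Trp53* allele (edgeR adjusted p = 0.00367). *Braf* counts differed by -0.02 between 4-HT-treated organoids with and without the *Braf* allele, and gene counts cannot show the V600E change.

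Promoter sequences are shown for 4 members that stand for the patterns described below. *Ascl2* had the largest rise in AC, *Lrig1* rose in each genotype, *Prom1* fell, and *Sox4* separated the genotypes after 4-HT. The 250 bases before the RefSeq start site were taken (GRCm38.p6, gene strand, 5′ to 3′), at chr7:142969265-142969514 (minus strand) for *Ascl2*, chr6:94700146-94700395 (minus) for *Lrig1*, chr5:44101737-44101986 (minus) for *Prom1* and chr13:28953700-28953949 (minus) for *Sox4*. Capitals mark matches to the motifs listed after the sequences.
Ascl2: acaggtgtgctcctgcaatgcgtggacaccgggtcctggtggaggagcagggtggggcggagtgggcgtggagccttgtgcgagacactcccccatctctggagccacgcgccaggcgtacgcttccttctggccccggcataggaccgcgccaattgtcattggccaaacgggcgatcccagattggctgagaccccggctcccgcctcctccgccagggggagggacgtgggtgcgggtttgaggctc
Lrig1: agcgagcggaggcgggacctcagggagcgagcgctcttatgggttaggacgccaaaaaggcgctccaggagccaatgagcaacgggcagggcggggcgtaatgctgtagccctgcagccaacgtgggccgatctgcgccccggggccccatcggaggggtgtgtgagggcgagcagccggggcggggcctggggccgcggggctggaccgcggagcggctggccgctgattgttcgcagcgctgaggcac
Prom1: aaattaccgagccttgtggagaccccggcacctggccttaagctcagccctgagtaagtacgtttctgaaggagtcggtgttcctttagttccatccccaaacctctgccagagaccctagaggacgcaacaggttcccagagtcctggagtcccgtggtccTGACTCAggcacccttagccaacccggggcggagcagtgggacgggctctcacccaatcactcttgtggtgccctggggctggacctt
Sox4: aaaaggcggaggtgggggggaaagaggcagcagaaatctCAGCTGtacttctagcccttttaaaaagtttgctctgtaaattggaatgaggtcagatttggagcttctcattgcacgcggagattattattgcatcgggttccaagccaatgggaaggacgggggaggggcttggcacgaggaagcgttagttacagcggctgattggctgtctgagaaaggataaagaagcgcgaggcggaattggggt

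Both strands were searched for 4 TCF/LEF motifs, spelled CTTTGAA, also CTTTGAT, further CTTTGTA, and lastly CTTTGTT, the sites of the factors through which β-catenin acts, for the AP-1 motif TGANTCA, for the ETS motif CCGGAAGT and for the E-box CAGCTG, a type of site bound by basic helix-loop-helix factors such as ASCL2. Windows were at hand for 6 members, 7 start sites in all. None of the 7 held a TCF/LEF or ETS match, against 14.8% and 2.88% of all 32851 windows. An AP-1 match lay 88 bases before the *Prom1* start shown and another 189 bases before its second start site, against 6.75% of all windows, and a CAGCTG match lay 211 bases before *Sox4*, against 13.0% of all windows. These are letter matches in a short window, and binding was not measured.

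Across genotypes, 4 of the 9 genes were called up with 4-HT in all 4 genotypes, *Lgr5*, *Ascl2*, *Sox9* and *Lrig1*, against 2.66% of all genes counted. Calls are edgeR quasi-likelihood tests at an adjusted p under 0.01. In AC, where *Apc* was the only targeted gene, these 4 were the calls up (3.00% of all genes were called up), and no member was called down by edgeR, limma-voom or DESeq2 (4.25% of all genes by edgeR), with *Prom1* the 1 lower gene at an unadjusted p under 0.05. DESeq2 called 6 of the 9 genes up in AC, adding *Sox4* and *Smoc2*, and 730 of all genes, against 406 by edgeR. In PAC 7 of 9 were called up (11.2%) and 1 down (12.2%). In BAC 5 were called up (20.3%) and 2 down (21.5%), and in BPAC 6 up (22.0%) and 2 down (23.0%). The median log2 change of the 9 genes was 0.94, 0.91, 0.74 and 0.94 (AC, PAC, BAC, BPAC), and that of all genes lay between -0.04 and 0.01. The study describes stem cell and Wnt target genes in these same samples, so these counts are not independent evidence of direction. AC had 2 samples per treatment and the other genotypes 4. Each of the 9 genes moved in one direction in all 14 cultures, with 7 higher and 2, *Lgr4* and *Prom1*, lower after 4-HT. All 14 4-HT samples lay above all 14 EtOH samples for 5 of the 9 genes (5.64% of all genes) and below them for 1 (6.85%). With the EtOH-treated and 4-HT-treated samples of a culture matched (the replicate block), 8 of 9 were called in AC, all but *Lgr4*, and 8, 8 and 9 in PAC, BAC and BPAC. Of all genes, 16.4% (AC), 34.9% (PAC), 51.9% (BAC) and 54.4% (BPAC) were then called.

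**Figure D1:**
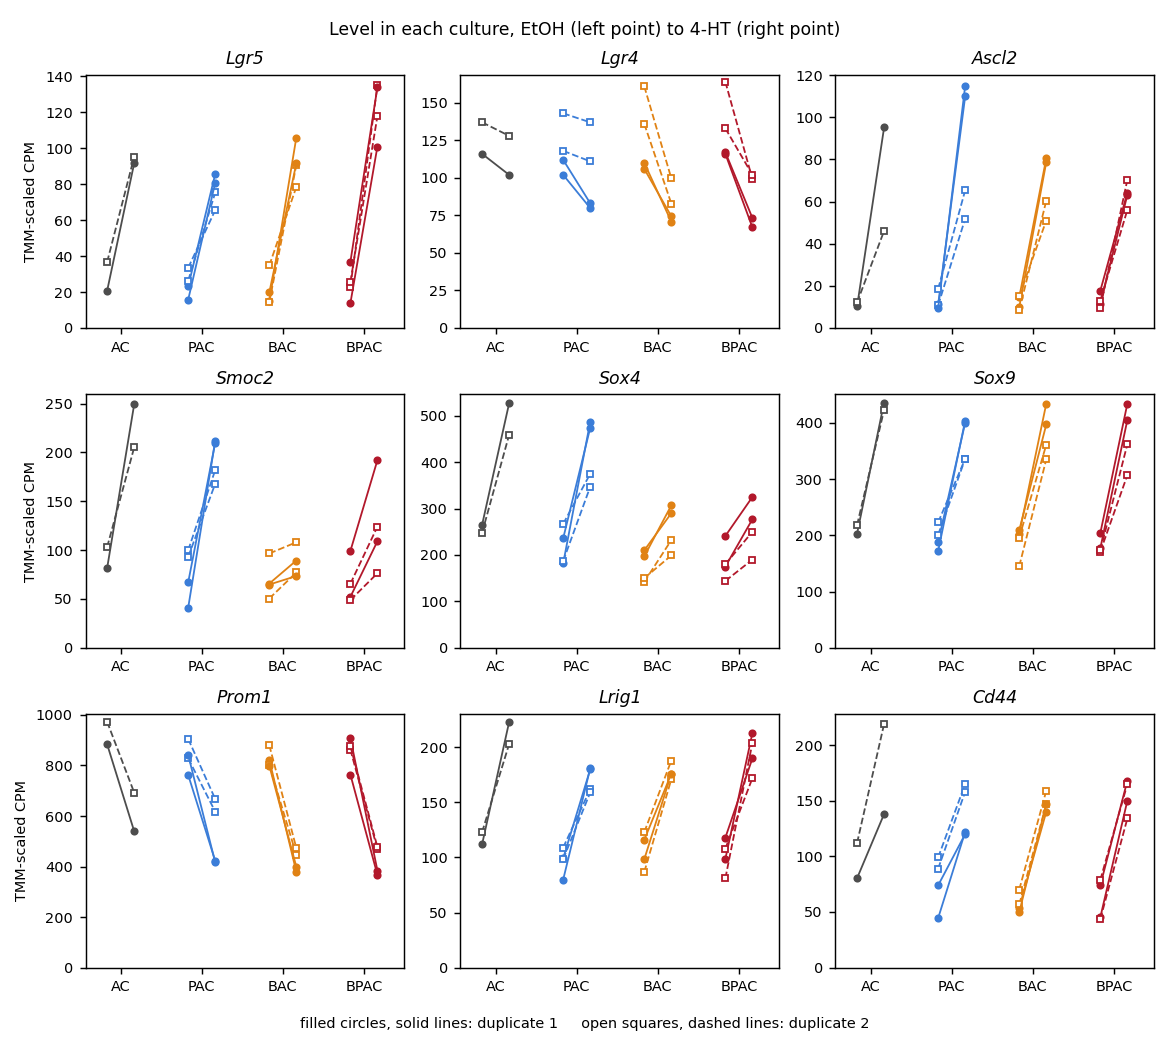
Levels of the 9 genes in TMM-scaled CPM (vertical axes, linear from 0), with a line from the EtOH sample (left) to the 4-HT sample (right) of each culture, filled circles for duplicate 1 and open squares for duplicate 2, for AC (2 cultures), PAC, BAC and BPAC (4 each). *Lgr5*, *Ascl2*, *Sox9*, *Lrig1* and *Cd44* rise without overlap between all EtOH and all 4-HT samples, and *Prom1* falls without overlap.

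Bulk levels cannot tell more cells of a type from more RNA per cell. Along with the changes of the 9 genes, colonocyte genes fell and proliferation genes rose. The summed level of 10 colonocyte genes was 16320 to 26318 CPM with EtOH and 3076 to 11202 CPM with 4-HT, and that of 10 proliferation genes was 845 to 1155 CPM and 1328 to 2283 CPM. Their part in the results on the stem cell genes was not tested.

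*Lgr5*, the R-spondin receptor that marks cycling crypt base stem cells, lies at chr10:115450311-115587780 (GRCm38, minus strand). In AC its level was 20.7 and 36.7 CPM with EtOH and 91.6 and 95.2 CPM with 4-HT. The PAC values were 23.2, 15.8, 26.4 and 33.5 CPM with EtOH and 85.8, 80.9, 75.4 and 65.6 CPM with 4-HT, listed here and below as duplicate 1 of both donors and then duplicate 2. All 4-HT samples of these genotypes were thus above all EtOH samples. In BAC the values were 19.8, 14.8, 34.8 and 14.5 CPM with EtOH and 91.7, 106, 78.5 and 90.7 CPM with 4-HT. In BPAC they were 13.8, 36.8, 23.0 and 25.6 CPM with EtOH and 101, 134, 135 and 118 CPM with 4-HT. After 4-HT all BPAC samples lay above all AC and PAC samples, while BAC overlapped with each. The log2 fold changes were 1.70 ± 0.38 (AC), 1.64 ± 0.27 (PAC), 2.12 ± 0.27 (BAC) and 2.30 ± 0.27 (BPAC, all ± SE), with edgeR adjusted p-values of 0.00345, 6.88e-05, 5.29e-07 and 1.4e-07. The difference in the change with the *Braf* allele, taken as the average over the genotypes with it less the average over those without, was 0.54 ± 0.29 and was not called (edgeR adjusted p = 0.227), and the donor means overlapped. It was 0.25 ± 0.40 within duplicate 1 and 0.77 ± 0.33 within duplicate 2 (edgeR adjusted p = 0.719 and 0.258), and lay between 0.25 and 0.85 over the settings tried, none of which called it.

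*Lgr4*, the paralog expressed more widely along the crypt, lies at chr2:109917647-110014257 (plus strand) and behaved differently. In AC it was 116 and 137 CPM with EtOH and 102 and 128 CPM with 4-HT. PAC levels were 112, 102, 118 and 143 CPM with EtOH and 83.1, 79.9, 111 and 137 CPM with 4-HT. Treatments overlapped in both. The BAC levels were 106, 110.0, 161 and 136 CPM with EtOH and 74.4, 70.8, 99.7 and 82.9 CPM with 4-HT. The BPAC levels were 117, 116, 164 and 133 CPM with EtOH and 73.3, 67.0, 99.2 and 102 CPM with 4-HT. With the *Braf* allele all 4-HT samples lay below all EtOH samples of their genotype. In each genotype, with or without the allele, both treatments were lower in duplicate 1 than in duplicate 2. *Lgr4* fell by 0.65 ± 0.18 in BAC and by 0.64 ± 0.18 in BPAC on the log2 scale (edgeR adjusted p = 0.00371 and 0.00396), while in AC and PAC the differences were -0.14 ± 0.25 and -0.21 ± 0.18 (adjusted p = 0.764 and 0.372). With library size alone, with which the median log2 change of all genes was 0.13 to 0.23 in place of -0.04 to 0.01, neither fall was called (-0.48 and -0.42) and the AC and PAC values turned to 0.08 and 0.01. The difference in the change with the *Braf* allele was -0.47 ± 0.20 (adjusted p = 0.119), and with the replicate block it was -0.45 ± 0.09 and was called (edgeR adjusted p = 0.00131), where 7.48% of all genes were called in this direction. No other setting tried called it, and with the duplicates of each donor summed it was -0.46 (adjusted p = 0.0246). Leaving out 1 culture ended the BAC call for Col286_1, Col286_2 or Col291_2 (adjusted p = 0.0139, 0.0208 and 0.0111) and the BPAC call for Col287_1, Col287_2 or Col312_1 (adjusted p = 0.0165, 0.0147 and 0.0173).

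**Figure D2:**
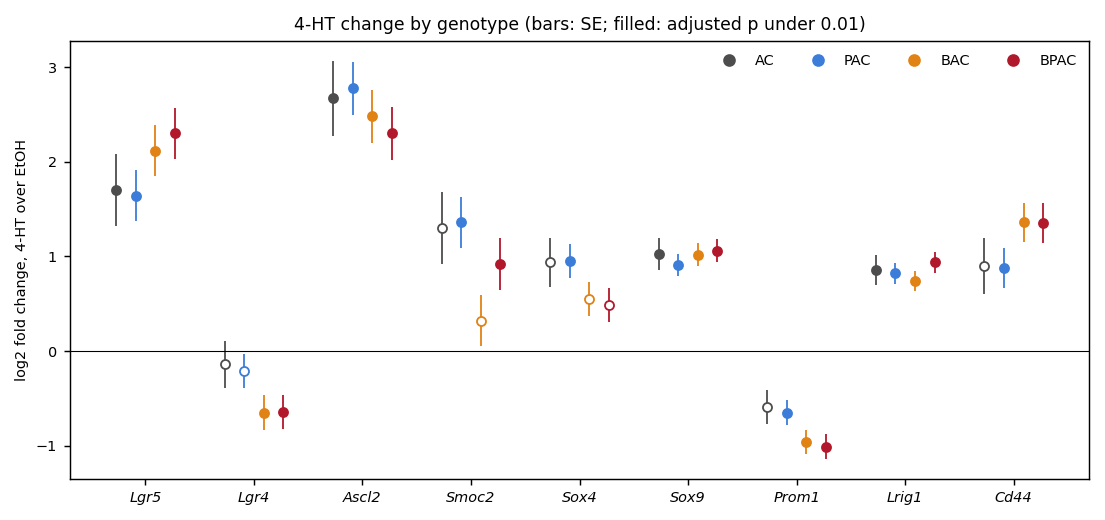
Log2 fold change of 4-HT over EtOH for each of the 9 genes (points, bars are the SE of the edgeR fit) in AC, PAC, BAC and BPAC, with filled points for an adjusted p under 0.01. *Ascl2* has the largest rises in AC, PAC and BAC (2.48 to 2.78) and shares 2.30 with *Lgr5* in BPAC, and *Lgr4* and *Prom1* are the genes below 0.

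Per kilobase of exon, over the union of annotated exons, *Lgr5* had the lowest mean level of the 9 genes in each of the 8 groups. This was despite its rise, and its exon length was the longest of the 9 (10264 bases). Its level was 1.35 to 3.59 CPM per kb with EtOH and 6.39 to 13.1 with 4-HT, with medians of 2.25 and 8.92 over 14 samples each. *Lgr4* had medians of 19.9 and 15.5 CPM per kb, from 17.4 to 27.9 with EtOH and from 11.4 to 23.2 with 4-HT. Thus, per kilobase the ranges of both receptors were apart with EtOH and overlapped with 4-HT. In CPM with 4-HT, the mean of *Lgr5* was above that of *Lgr4* in BAC (91.8 and 81.9) and BPAC (122 and 85.4). It was below it in AC (93.4 and 115) and PAC (76.9 and 103). At the other end, *Prom1* had the highest mean per kilobase in every EtOH group (median 119 CPM per kb) and *Sox9* in every 4-HT group (median 96.4), where the ranges of *Sox9* (74.4 to 105), *Sox4* (39.6 to 110.0) and *Prom1* (51.2 to 96.5) overlapped.

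Among the transcription factors, *Ascl2*, a Wnt target and regulator of the stem cell state, had the largest change of the 9 genes in AC, PAC and BAC. In AC it was 10.2 and 12.1 CPM with EtOH and 95.2 and 46.1 CPM with 4-HT. In PAC it was 11.3, 9.34, 10.8 and 18.6 CPM with EtOH and 110.0, 115, 51.9 and 65.4 CPM with 4-HT. The level after 4-HT was higher in duplicate 1 than in duplicate 2 in both genotypes, as also in BAC below, while in BPAC the duplicates overlapped. In BAC it was 14.6, 9.93, 15.3 and 8.42 CPM with EtOH and 80.6, 78.7, 51.0 and 60.4 CPM with 4-HT. In BPAC it was 11.6, 17.7, 9.61 and 12.9 CPM with EtOH and 63.2, 64.3, 70.4 and 56.1 CPM with 4-HT. No EtOH sample reached any 4-HT sample. The log2 fold changes of *Ascl2* were 2.67 ± 0.40 (AC), 2.78 ± 0.28 (PAC), 2.48 ± 0.28 (BAC) and 2.30 ± 0.28 (BPAC; edgeR adjusted p = 0.000174, 8.03e-07, 9.28e-08 and 2.15e-07). The difference in the change with the *Braf* allele was -0.33 ± 0.30 (adjusted p = 0.499), and it was -0.92 ± 0.22 within duplicate 1 and 0.39 ± 0.34 within duplicate 2 (edgeR adjusted p = 0.0231 and 0.590).

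*Sox9*, a β-catenin target expressed in crypt progenitors, was 145, 198 and 223 CPM (lowest, median and highest of 14) with EtOH and 307, 398 and 436 CPM with 4-HT. The treatments did not overlap. With 4-HT the AC samples (423 and 436 CPM) lay above all PAC samples (336 to 404 CPM), and the other pairs of genotypes overlapped. Its log2 fold changes were 1.03 ± 0.17 (AC), 0.91 ± 0.12 (PAC), 1.02 ± 0.12 (BAC) and 1.06 ± 0.12 (BPAC), each called. With the *Braf* allele the change differed by 0.07 ± 0.13 (edgeR adjusted p = 0.783) and the level after 4-HT by -0.07 ± 0.09 (adjusted p = 0.574).

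*Sox4*, a related factor of progenitor cells, separated the genotypes after 4-HT. In AC it was 265 and 248 CPM with EtOH and 527 and 459 CPM with 4-HT. PAC samples held 236, 182, 267 and 187 CPM with EtOH and 474, 487, 375 and 347 CPM with 4-HT. The 4-HT samples were above the EtOH samples in both. The BAC levels were 197, 210.0, 150.0 and 142 CPM with EtOH and 307, 290.0, 199 and 232 CPM with 4-HT. The BPAC levels were 175, 241, 144 and 180.0 CPM with EtOH and 277, 325, 190.0 and 250.0 CPM with 4-HT. Each of these 8 cultures was higher with 4-HT, but the treatments overlapped, and all 4-HT samples with the *Braf* allele lay below all 4-HT samples without it. *Sox4* was the 1 gene of 9 with such a gap in this direction, which 9.36% of all genes had. *Sox4* rose by 0.95 ± 0.18 in PAC (edgeR adjusted p = 0.000329), while the changes of 0.94 ± 0.26 in AC, 0.55 ± 0.18 in BAC and 0.49 ± 0.18 in BPAC had adjusted p-values of 0.0142, 0.0126 and 0.0234. With the replicate block these 3 were called (adjusted p = 0.000393, 0.000240 and 0.000621).

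*Lrig1*, which encodes an inhibitor of EGF receptor signaling and marks crypt stem cells, was 79.9, 104 and 123 CPM (lowest, median, highest of 14) with EtOH and 159, 180.0 and 223 CPM with 4-HT. The treatments did not overlap. With 4-HT the AC samples (203 and 223 CPM) lay above all PAC (159 to 181 CPM) and BAC samples (171 to 188 CPM), and with EtOH they were above all PAC samples. Its rise was 0.86 ± 0.16 (AC), 0.82 ± 0.11 (PAC), 0.74 ± 0.11 (BAC) and 0.94 ± 0.11 (BPAC) on the log2 scale, each called. The change differed with the *Braf* allele by 0.01 ± 0.13 (edgeR adjusted p = 0.982).

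*Smoc2*, a secreted matrix protein of the crypt base stem cell signature, had the smallest change in BAC of the genes that rose elsewhere. In AC it was 81.5 and 103 CPM with EtOH and 249 and 205 CPM with 4-HT. The PAC values were 67.1, 41.2, 99.9 and 93.1 CPM with EtOH and 210.0, 212, 182 and 168 CPM with 4-HT. The treatments did not overlap in either. In BAC it was 64.7, 65.7, 96.5 and 50.4 CPM with EtOH and 73.4, 89.3, 108 and 77.1 CPM with 4-HT. In BPAC it was 52.1, 99.1, 48.8 and 65.5 CPM with EtOH and 109, 192, 76.3 and 124 CPM with 4-HT. Treatments overlapped in both, and in BPAC donor Col312 was higher than donor Col287 in each treatment and duplicate. The log2 fold changes were 1.36 ± 0.27 in PAC and 0.92 ± 0.27 in BPAC, both called (edgeR adjusted p = 0.000429 and 0.00532), and 1.30 ± 0.38 in AC and 0.32 ± 0.27 in BAC, not called (adjusted p = 0.0198 and 0.313). With the replicate block the AC change was called (adjusted p = 0.00162). The BPAC change was called in 27 of the 35 settings tried. The call was lost, among others, when culture Col287_1 or Col312_2 was left out (adjusted p = 0.0242 and 0.0214).

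*Prom1*, which encodes the membrane protein prominin-1 and marks stem and transit-amplifying cells of the crypt, fell. In AC it was 884 and 973 CPM with EtOH and 540.0 and 693 CPM with 4-HT. In PAC it was 762, 841, 828 and 905 CPM with EtOH and 422, 416, 617 and 667 CPM with 4-HT. Duplicate 1 was lower than duplicate 2 after 4-HT in both, as also in BAC and BPAC below. The BAC levels were 799, 822, 880.0 and 801 CPM with EtOH and 399, 379, 473 and 446 CPM with 4-HT. The BPAC levels were 909, 764, 863 and 876 CPM with EtOH and 384, 367, 469 and 477 CPM with 4-HT. All 14 samples with 4-HT lay below all 14 with EtOH. Its log2 fold changes were -0.65 ± 0.13 (PAC), -0.96 ± 0.13 (BAC) and -1.01 ± 0.13 (BPAC), all called (edgeR adjusted p = 0.000473, 1.52e-06 and 6.21e-07). The change of -0.59 ± 0.18 in AC was not called (adjusted p = 0.0292) and was called with the replicate block (adjusted p = 0.00418).

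*Cd44*, a hyaluronan receptor and Wnt target of the crypt, was 80.3 and 112 CPM with EtOH and 138 and 219 CPM with 4-HT in AC. For PAC the values were 73.9, 44.5, 99.0 and 88.9 CPM with EtOH and 120.0, 122, 165 and 158 CPM with 4-HT. Both genotypes had higher values in duplicate 2 with 4-HT. In BAC it was 49.8, 53.8, 70.1 and 56.7 CPM with EtOH and 147, 140.0, 159 and 147 CPM with 4-HT. In BPAC it was 45.2, 74.0, 43.6 and 78.8 CPM with EtOH and 150.0, 168, 134 and 165 CPM with 4-HT. The genotypes reached similar ranges with 4-HT from EtOH values that were lower in most samples with the *Braf* allele. *Cd44* rose by 0.88 ± 0.21 (PAC), 1.36 ± 0.21 (BAC) and 1.35 ± 0.21 (BPAC; edgeR adjusted p = 0.00213, 9.16e-06 and 8.37e-06), and its change of 0.90 ± 0.30 in AC had an adjusted p of 0.0398, or 0.00140 with the replicate block. The difference in the change with the *Braf* allele was 0.47 ± 0.23 (adjusted p = 0.190), and the level with EtOH differed by -0.54 ± 0.16 (adjusted p = 0.122).

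Which of these changes depended on the *Braf* allele was tested as the difference between the 4-HT changes with and without it. Without the replicate block none of the 9 genes passed, by edgeR, limma-voom or DESeq2, against 6.61% of all genes by edgeR, and with it *Lgr4* did. An unadjusted edgeR p under 0.05 was found for 4 of 9 (28.5% of all genes), *Prom1* (0.0202), *Smoc2* (0.0245), *Lgr4* (0.0276) and *Sox4* (0.0483). For these 4 the donor means of the change were lower in all 4 donors with the allele than in all 3 without it, which held for 17.1% of all genes, and no member was higher without overlap (18.2%). Without the duplicate 1 PAC cultures this gap held for *Lgr4* and *Prom1* (17.0% of all genes) and was gone for *Smoc2* (0.169 to 0.936 with and 0.849 to 1.31 without the allele) and *Sox4* (0.453 to 0.585 and 0.493 to 0.938), while *Cd44* was then higher without overlap (17.5% of all genes). With all cultures, the donor means of *Smoc2* were 0.169 to 0.936 with and 1.26 to 1.61 without the allele, and those of *Sox4* 0.453 to 0.585 and 0.749 to 1.16. The values of single cultures overlapped for all 9 genes, whereas 4.90% of all genes were higher and 4.47% lower without overlap. With *Trp53* wild type (BAC minus AC) and *Trp53* mutant (BPAC minus PAC) taken apart, none was called either by edgeR, limma-voom or DESeq2 (0.215% and 3.57% of all genes by edgeR), and 1 and 0 had an unadjusted p under 0.05. The *Smoc2* difference was -0.98 ± 0.46 in the first and -0.44 ± 0.38 in the second. The *Trp53* allele changed the response of none of the 9 by any of these tools (0.0148% of all genes by edgeR), none with an unadjusted p under 0.05.

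The level after 4-HT was lower with the *Braf* allele for 3 of the 9 genes, *Smoc2*, *Sox4* and *Prom1*, and none was called higher (14.6% and 15.6% of all genes). *Smoc2* was lower by a log2 difference of -1.01 ± 0.21, *Sox4* by -0.82 ± 0.14 and *Prom1* by -0.43 ± 0.10 (edgeR adjusted p = 0.000378, 6.44e-05 and 0.00152). These values were -1.05, -0.75 and -0.32 within duplicate 1 and -0.98, -0.90 and -0.52 within duplicate 2. Within a duplicate, AC had 1 sample per treatment. Over the 32 settings tried, the difference was called in 31 for *Smoc2*, 32 for *Sox4* and 30 for *Prom1*. The *Lgr4* difference in level after 4-HT was -0.38 ± 0.14, not called (edgeR adjusted p = 0.0321). It was -0.35 ± 0.06 within duplicate 1 and -0.39 ± 0.13 within duplicate 2 (adjusted p = 0.00138 and 0.0458), and it was called in 3 of 32 settings. *Lgr4* with 4-HT was 67.0 to 74.4 CPM with and 79.9 to 102 CPM without the allele in duplicate 1, and 82.9 to 102 CPM and 111 to 137 CPM in duplicate 2. Thus, within each duplicate taken apart, the samples with the allele lay below those without it for 4 of the 9 genes, *Smoc2*, *Sox4*, *Prom1* and *Lgr4* (14.5% of all genes). With EtOH, before recombination, no member was called by edgeR, limma-voom or DESeq2 (0.0296% of all genes by edgeR), and 2 had an unadjusted edgeR p under 0.05 (17.2% of all genes), *Cd44* (0.00308) and *Sox4* (0.0104). The *Sox4* level was already lower by -0.39 ± 0.14 with EtOH (adjusted p = 0.171), and the *Smoc2* level by -0.29 ± 0.21 and the *Prom1* level by -0.07 ± 0.10. With 4-HT, duplicate 1 of BAC and BPAC was sequenced more deeply (37.4 to 40.1 M counts) than that of AC and PAC (26.6 to 30.3 M). With all samples thinned to the smallest total the same 3 genes were called, with 1902 of all genes called lower, against 1980 without thinning.

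**Figure D3:**
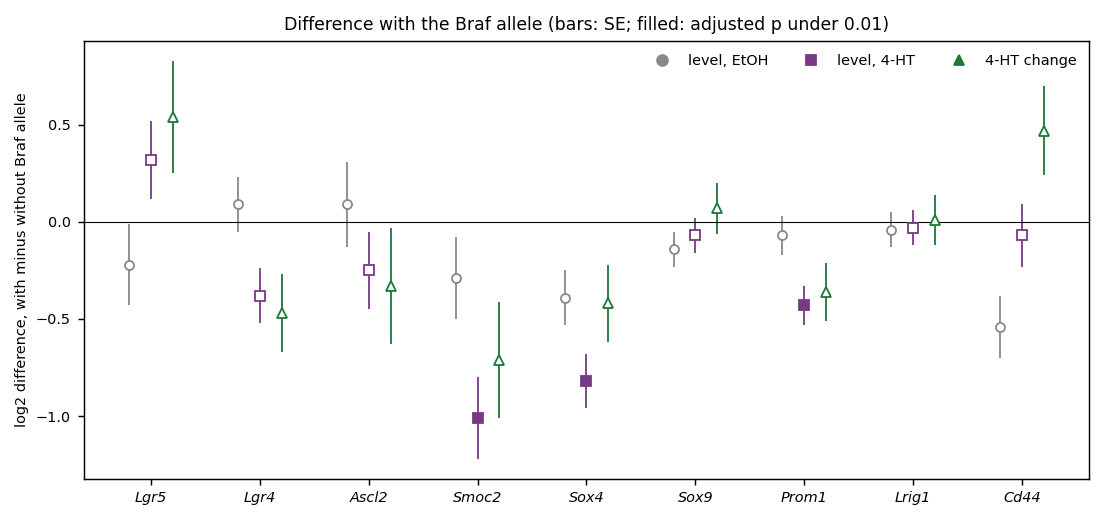
Log2 difference between organoids with and without the *Braf* allele for each of the 9 genes, as the level with EtOH (circles), the level with 4-HT (squares) and the 4-HT change (triangles), with the SE as bars and filled symbols for an adjusted p under 0.01. The filled symbols are the levels with 4-HT of *Smoc2* (-1.01), *Sox4* (-0.82) and *Prom1* (-0.43).

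In PAC most calls were lost without duplicate 1. Without both duplicate 1 cultures, the pair described above, 1 of 9 genes was called in PAC, *Ascl2* (log2 fold change 1.99 ± 0.34, edgeR adjusted p = 0.00698), with 22 of all genes called up and 26 down (0.355% in all), against 1511 and 1655 with them. Only 2 samples per treatment then remained. The PAC changes then were 1.23 ± 0.37 for *Lgr5*, 0.66 ± 0.16 for *Sox9* and 0.63 ± 0.16 for *Lrig1* (adjusted p = 0.0533, 0.0269 and 0.0281). They were 0.67 ± 0.26 for *Sox4*, 0.86 ± 0.35 for *Smoc2* and 0.78 ± 0.25 for *Cd44* (edgeR adjusted p = 0.115, 0.134 and 0.0664). For *Prom1* and *Lgr4* they were -0.43 ± 0.14 and -0.08 ± 0.23 (adjusted p = 0.0779 and 0.872). Of the genes in the other lists given below, *Sp5* was the 1 call left in PAC. The *Braf* difference in level after 4-HT was called for *Smoc2*, *Sox4*, *Prom1* and *Lgr4* without these cultures, as for 29.6% of all genes. With the pair summed to 1 library, 8 of the 9 genes were called in PAC, with 1083 of all genes called up and 1176 down.
In AC, whose 2 cultures came from 1 donor, leaving out either culture left a lone sample per treatment, with a spread only assumed from the other groups. Of the 4 genes called in AC, the change in duplicates 1 and 2 was 3.22 and 1.93 for *Ascl2* and 2.14 and 1.37 for *Lgr5*. It was 1.10 and 0.96 for *Sox9* and 0.99 and 0.72 for *Lrig1*. The AC calls thus rest on 2 cultures of 1 donor.

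Of the other genes of R-spondin and Wnt reception, 16 of 22 listed were counted. *Lgr6*, the third R-spondin receptor, and the R-spondin genes were not analysed here. In AC 3 rose and 1 fell, in PAC 5 and 2, and in BAC and BPAC 8 and 3. The shares of all genes that rose and fell were 3.00% and 4.25% (AC), 11.2% and 12.2% (PAC), 20.3% and 21.5% (BAC) and 22.0% and 23.0% (BPAC), and the same shares stand behind the list counts that follow. The median log2 change over the 16 was 0.30, 0.21, 0.37 and 0.36 (AC, PAC, BAC, BPAC), against -0.04 to 0.01 over all genes. *Rnf43*, the ligase gene that LGR receptors oppose, rose by 1.12 ± 0.19 (AC), 1.04 ± 0.13 (PAC), 0.94 ± 0.13 (BAC) and 0.80 ± 0.13 (BPAC). *Znrf3*, which encodes the related ligase, rose by 0.79 ± 0.16 (PAC), 0.74 ± 0.16 (BAC) and 0.79 ± 0.16 (BPAC), and its change of 0.71 ± 0.22 in AC was not called (edgeR adjusted p = 0.0280). Among the Frizzled receptors, *Fzd9* rose most, by 1.55 ± 0.39 in AC and 2.89 ± 0.29 in BPAC, and *Fzd5* fell by 1.20 ± 0.28 in AC and by 1.62 ± 0.20 in BPAC.
Of these genes, *Fzd1* and the Wnt receptor gene *Ror2* had a 4-HT change that differed with the *Braf* allele. For *Fzd1* the difference was 0.85 ± 0.11 (edgeR adjusted p = 3.38e-05), with changes of 0.07 and 0.23 in AC and PAC and of 1.01 and 0.98 in BAC and BPAC. For *Ror2* it was 0.68 ± 0.16 (adjusted p = 0.00623).

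Of 17 other crypt base and Wnt target genes, 16 were counted, and the number that rose was 7 (AC), 11 (PAC), 9 (BAC) and 10 (BPAC). The 1 fall was that of *Aqp4* in BAC. Their median change was 0.95, 0.88, 0.82 and 0.77 in these genotypes. *Sp5*, a Wnt-induced transcription factor, rose by 1.75 ± 0.39 in AC and 2.75 ± 0.29 in BPAC. *Igfbp4* rose in BPAC by 3.14 ± 0.81, and its change in AC was 0.82 ± 1.19. *Axin2*, a general readout of β-catenin activity, rose by 0.67 ± 0.19 (PAC), 0.86 ± 0.19 (BAC) and 0.77 ± 0.19 (BPAC), whereas its change of 0.30 ± 0.26 in AC was not called (edgeR adjusted p = 0.481).

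**Figure D4:**
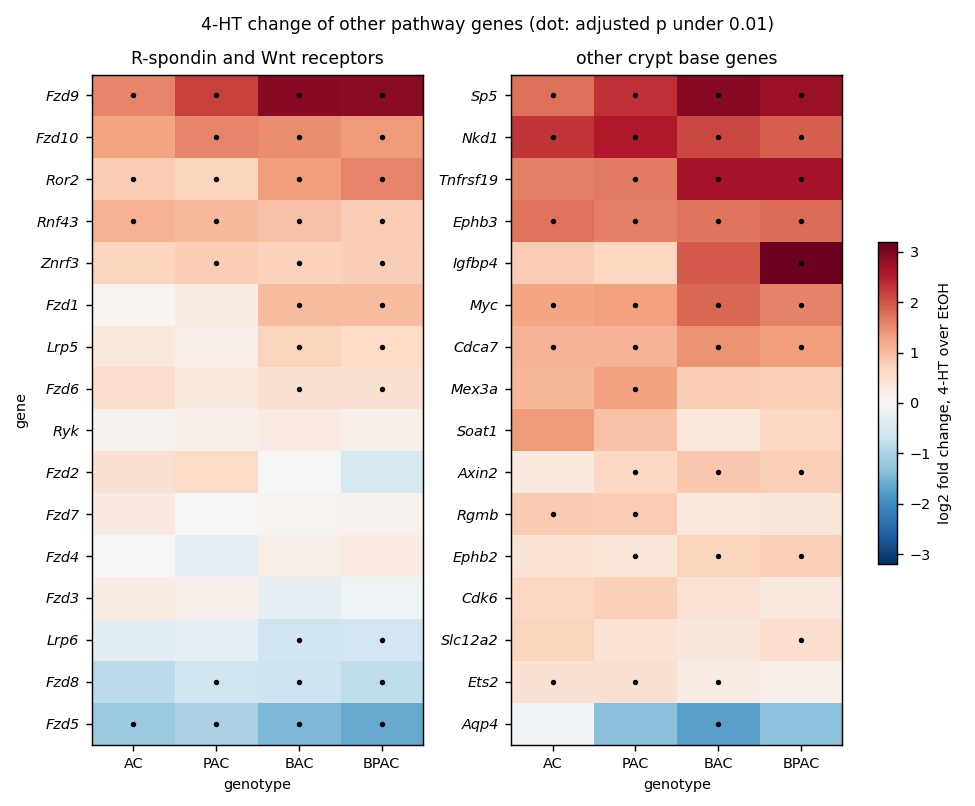
Log2 fold change of 4-HT over EtOH (colour) for 16 R-spondin and Wnt receptor genes and 16 other crypt base genes in AC, PAC, BAC and BPAC (columns), sorted by mean change, with a dot for an adjusted p under 0.01. *Fzd1* is near 0 in AC and PAC and above 0.9 in BAC and BPAC, while *Rnf43* has a dot in each column.

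Of 7 counted paralogs of the 9 genes, 1 rose and 2 fell in BPAC, where 22.0% of all genes rose and 23.0% fell. *Sox12* rose by 1.15 ± 0.17 while *Lrig3* fell by 0.89 ± 0.13 and *Lrig2* by 0.65 ± 0.17, the opposite direction to *Lrig1*. Among 9 genes of reserve stem cells and injury response, *Hopx* rose in each genotype, by 0.90 ± 0.20 in AC and 1.11 ± 0.14 in BPAC. *Ly6a*, which encodes the regeneration marker SCA-1, rose by 1.12 ± 0.12 in BAC and 1.03 ± 0.12 in BPAC against changes of 0.09 ± 0.17 in AC and 0.29 ± 0.12 in PAC. This difference with the *Braf* allele was 0.89 ± 0.13 (edgeR adjusted p = 0.000108).

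Genes of other cell states moved with the stem cell genes, and their part was not tested. Of 10 proliferation genes, the number that rose was 4 (AC), 8 (PAC), 9 (BAC) and 10 (BPAC), led in BPAC by *Mcm2* (1.46 ± 0.16) and *Mcm3* (1.34 ± 0.15), both DNA replication licensing genes. The mitotic genes *Ccnb1* and *Aurkb* rose more with the *Braf* allele, by a difference of 0.66 ± 0.11 and 0.55 ± 0.12 (edgeR adjusted p = 0.000236 and 0.00353). Of 10 colonocyte genes, the number that fell was 5 (AC), 7 (PAC), 9 (BAC) and 10 (BPAC). The brush border disaccharidase gene *Sis* fell by 5.01 ± 0.52 in BPAC, and *Guca2a*, which encodes guanylin, fell by 3.03 ± 0.20. Both fell more with the *Braf* allele, with differences of -2.52 ± 0.50 and -1.40 ± 0.21 (adjusted p = 0.00156 and 9.95e-05).
Of 11 secretory lineage genes, 3 rose and 3 fell in BPAC (22.0% and 23.0% of all genes), with *Neurog3*, an endocrine progenitor factor, at 2.21 ± 0.25 and the goblet cell gene *Fcgbp* at -1.68 ± 0.27. The goblet cell genes *Tff3* and *Agr2* differed in their change with the *Braf* allele in opposite directions, by -0.98 ± 0.24 and 0.83 ± 0.20. Of the 10 epithelial and colon markers, 1 fell in AC and 7 in BPAC, among them *Vil1*, whose promoter drives the Cre, by 0.95 ± 0.13. *Pecam1*, an endothelial marker, fell by 1.79 ± 0.43 in BPAC at its low level.

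Pearson's r of log2 CPM with *Lgr5* over the 28 samples was highest for *Sinhcaf* (0.97), *Rnf219*, *Myc*, *Pthlh* and *Slc41a1* (0.96 each). The samples share their 2 treatments, so a gene with any large treatment difference scores high. Among the 9 genes, *Ascl2*, *Sox9* and *Lrig1* had an r of 0.93 and *Cd44* of 0.91, followed by *Smoc2* (0.70), *Sox4* (0.62), *Lgr4* (-0.60) and *Prom1* (-0.86). Over the 4-HT changes of the 14 cultures, the highest values were those of *Pthlh* (0.91), *Gm43024* (0.88), *Serinc3* (0.87), *Rnf219* and *Gmnn* (0.86 each). There, *Cd44* had an r of 0.68, *Ascl2* of 0.62, *Sox9* of 0.58 and *Lrig1* of 0.52. *Smoc2* (0.08) and *Sox4* (-0.05) were near 0, and *Lgr4* (-0.55) and *Prom1* (-0.73) were negative. Cultures of a donor share an animal, and these values are descriptions without a test.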

How the data were processed

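Organoid RNA was sequenced in 28 samples. The authors deposited raw counts per gene without normalization, from reads trimmed with Trimmomatic 0.39 and aligned to GRCm38 with STAR 2.5.2b. The counting program, annotation and strandedness are not given in the sources used here. Of 13519 genes, 13479 were matched to GENCODE M21 symbols and exon lengths. Totals were 20577276 to 40068718 counts.

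Counts were scaled by TMM and tested with the quasi-likelihood test of edgeR 4.0.16 (R 4.3.3) over the 8 combinations of genotype and treatment. Adjustment was by Benjamini-Hochberg over all genes, with a threshold of 0.01. Limma-voom (limma 3.58.1) and the Wald test of DESeq2 1.42.0 were alternatives, among those of the closing section. The tests were first run on simulated counts with known changes. Changes per culture used log2 CPM with a prior count of 2. The samples of 1 culture share donor and duplicate number, and across genes their deviations from group means had r of 0.25 to 0.53 in 12 cultures, so culture served as the replicate block. One label lacked its duplicate number and was read as duplicate 1. The organoid culture text of the study gives a 4-HT dose of 3 µM, while its RNA sequencing text and the labels give 3.5 µM.

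The 10 genes and the other lists were chosen with earlier results of these data known, and the study describes such genes in these samples, so counts over the lists are not independent evidence. Named from the other lists were the 2 genes with the largest change past the threshold in BPAC and the 2 with the largest *Braf* difference, plus *Lgr6*, *Znrf3*, *Rnf43* and *Axin2*, and the 5 genes most like *Lgr5*. Of the genes this rule names, 1 is not reported here. *Aqp4* and *Lrig2* were named after their values were seen. Promoters came from RefSeq.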

Additional observations from a re-analysis of the deposited data

How the results depend on the processing

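Against 4 members called in AC (406 of all genes up and 574 down), 7 were called with library size alone (1511 and 302). With the replicate block 8 were called (1007 and 1216), and 8 at an adjusted p under 0.05, which also lets more of all genes pass. Up to 6 were called when a culture or donor of another genotype was left out (247 to 587 of all genes up and 401 to 774 down). Fits on 1 AC culture left 1 sample per treatment and are not counted here. Against 8 in PAC (1511 of all genes up and 1655 down), 0 were called in duplicate 2 alone (2 and 5) and 1 without both duplicate 1 cultures (22 and 26). Leaving out a culture or donor gave 4 to 8, with 4 without donor Col290 (497 and 650) and also without donor Col313 (156 and 180). The *Braf* difference in the 4-HT change had 1 member called with the replicate block, *Lgr4* (880 of all genes up and 1011 down). The *Braf* difference in EtOH level had 0 to 1, the 1 being *Cd44* without donor Col312 (128 and 114). Fewer samples remained in the settings that left samples out, and for the others the cause was not tested.

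*Lgr4* in PAC was called in 1 setting, duplicate 1 alone (-0.39 ± 0.08, edgeR adjusted p = 0.00265). The values that follow changed sign at the setting named, and none was called there. With library size alone, *Lgr4* was 0.08 in AC and 0.01 in PAC, and the *Braf* difference in the *Lrig1* change was -0.03, as it was among genes with a mean of at least 100 counts. In duplicate 1 alone, the *Braf* difference in the change was -0.19 for *Lrig1* and -0.05 for *Sox9*, and that in level was 0.22 for *Cd44* with 4-HT and 0.07 for *Smoc2* with EtOH. In duplicate 2 alone, *Ascl2* had 0.39 for the change and 0.19 for the 4-HT level, and *Lrig1* had 0.02 for the 4-HT level. Without the duplicate 1 PAC cultures these 3 values were 0.06, 0.03 and 0.01. Leaving out a culture or donor gave -0.61 to 0.04 for the *Ascl2* change, -0.06 to 0.09 for the *Lrig1* change, -0.46 to 0.06 for the *Ascl2* level and -0.22 to 0.11 for the *Cd44* level with 4-HT.

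Over all values and settings, 1817 kept direction and side of the threshold, 69 lost the call, 37 gained it and 27 changed sign. Library size alone raised the share of calls that were up from 41.4% to 83.3% in AC, 47.7% to 82.1% in PAC, 48.6% to 65.3% in BAC and 48.9% to 68.0% in BPAC. The replicate block allows no test of levels between genotypes. The setting that summed the alike PAC libraries was chosen after seeing the data. The members had at least 163 counts per sample.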
